A study of Mus musculus with 3 samples.

Results

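The 39 Hox cluster genes of the mouse were nearly silent in the rostrum of the E9 embryo, with *Hoxb4* as the exception in the *tuft* library. They were taken from the count table by symbol, as every gene named Hox followed by a cluster letter from a to d and a number, and they made up 39 of the 24062 genes listed. The *Hoxa* cluster held 11 of them, *Hoxb* 10, *Hoxc* 9 and *Hoxd* 9. The rostrum is the front of the head, dissected from embryos with 18 to 22 somites. The mutant library came from *tuft*/*tuft* embryos with a neural tube defect, homozygous for a nonsense mutation in *Tet1* that arose spontaneously in the 3H1 colony, and the control library came from wild-type embryos of the same 3H1 Balb strain. *Tet1* encodes an enzyme that oxidizes 5-methylcytosine in DNA. RNA of 3 embryos of a genotype was pooled before sequencing, so each library averages its embryos and no spread between embryos can be measured. The labels list 2 *tuft* samples, and whether the *tuft* counts come from 1 of them or from both is not given in the sources used here.

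Hox genes encode homeodomain transcription factors that give cells along the head-to-tail axis their regional identity. They lie in 4 clusters in which gene order follows the order of expression along the axis, a property called collinearity: genes of low paralog number, at the 3′ end of a cluster, come on early and as far forward as the hindbrain, and genes of high paralog number act in the posterior trunk, tail and limbs. Genes at the same position in different clusters form a paralog group. The forebrain and midbrain develop without Hox expression, where *Otx2* and other rostral genes act, and Hox genes are known to be off there. On the GRCm38 assembly, *Hoxa* spans chr6:52155367-52260880, *Hoxb* chr11:96194316-96368254, *Hoxc* chr15:102921131-103036856 and *Hoxd* chr2:74668225-74765142.

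The *tuft* library held 6433067 counts on genes and the wild-type library 14251942, which made wild type 2.22 times deeper. A single count therefore stood for 0.155 CPM (the count divided by all counts on genes, times 1000000) in *tuft* and 0.0702 CPM in wild type. A count of 0 was taken to allow a level of up to 3 counts, which is 0.466 CPM in *tuft* and 0.210 CPM in wild type. The exact 95% interval of a count of 0 reaches further, to 0.573 CPM in *tuft* and 0.259 CPM in wild type. *Tet1* itself, the gene that carries the mutation, was counted 32 times in the *tuft* library against 435 in the control, a fold of 0.214 (95% interval 0.145 to 0.307). With 1 library per genotype there was no replicate check and no test, and all intervals here cover counting error only. Folds are *tuft* over wild type after scaling by trimmed mean of M-values (TMM) factors. A gene was called when the whole 95% interval of its fold lay beyond 2-fold, among genes whose counts in the 2 libraries added up to 10 or more, which describes these 2 libraries and not the genotypes. In tissue RNA, fewer cells of a type and less RNA per cell cannot be told apart.

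The dissection was checked against genes of the rostral brain, and these were abundant where Hox genes were not. The 10 rostral brain genes summed to 541 CPM in wild type and 853 CPM in *tuft*, against 7.65 CPM (6.28 to 9.23) and 20.7 CPM (17.3 to 24.5) for all 39 Hox genes. *Otx2*, needed for forebrain and midbrain, had 2104 counts in wild type and 990 in *tuft*, a fold of 1.37 after scaling for depth. *Lhx2*, a gene of the eye field and forebrain, had 2223 and 802, a fold of 1.05. *Six3*, a gene of the most anterior neural plate, had 958 and 1361, a fold of 4.14. *Hesx1* had 36 counts in wild type and 0 in *tuft*, and *Rax*, an eye field gene, had 389 and 2, so these rostral markers were near or at 0 in the *tuft* library. *Vax1* was lower too, at 123 and 8. Of the 10 genes, 4 were called higher and 3, the ones just named, lower, and with library totals alone 2 were called higher and 3 lower. Over all 13979 genes tested, 17.4% were called higher and 29.8% lower with TMM, and with 10 genes nothing is read from the share called.

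Of the 39 Hox genes, 17 had no count in either library, 22 had a count in at least 1, and only *Hoxb4* and *Hoxb8* had counts in both. In wild type, 20 Hox genes had a count and 19 had none. In *tuft*, 4 had a count and 35 had none. Zeros were more frequent among Hox genes than in the whole table in each library: 48.7% (32.4 to 65.2) against 29.7% of all genes in wild type, and 89.7% (75.8 to 97.1) against 51.0% in *tuft*. Above the floor of 3 counts lay 28.2% of Hox genes against 62.8% of all genes in wild type, and 2.56% against 44.5% in *tuft*.

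**Figure D1:**
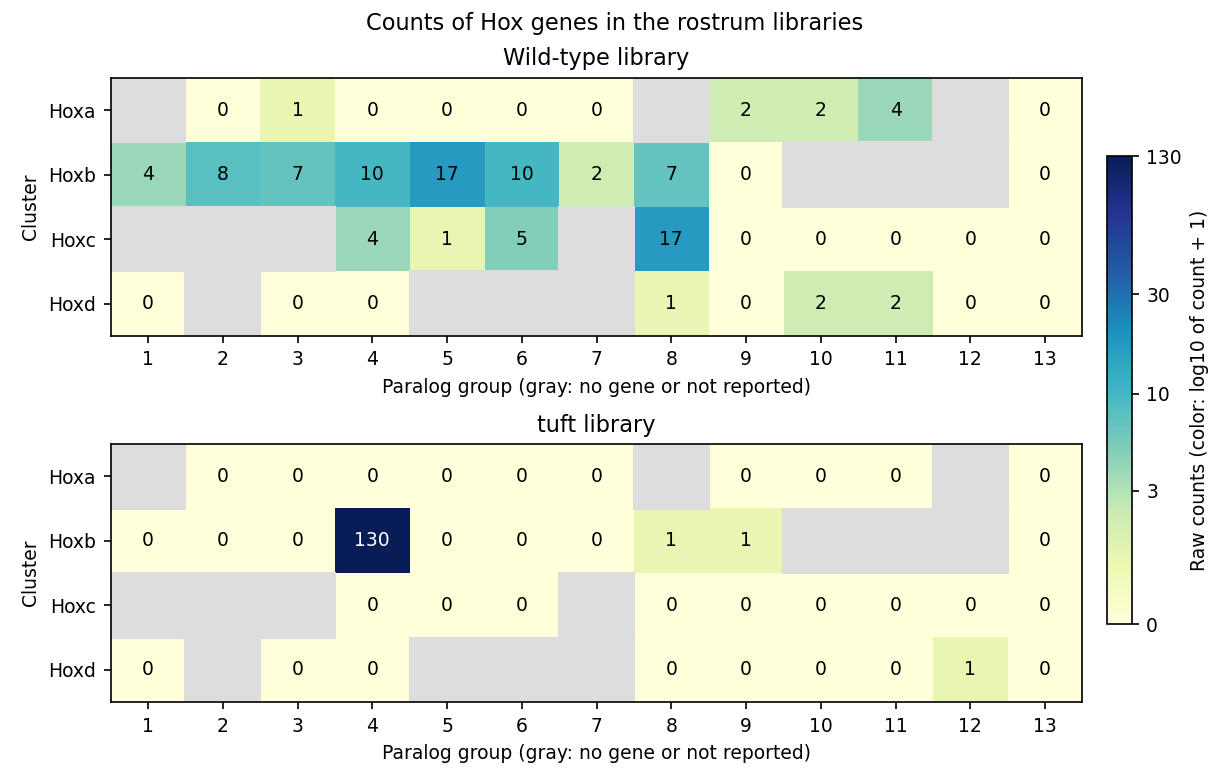
Raw counts of Hox genes, by cluster (rows) and paralog group (columns), in the wild-type library (top) and the *tuft* library (bottom); gray cells have no gene or are not reported and color follows the log10 of the count + 1. Wild-type counts reach 17 and lie mostly in *Hoxb*, while *tuft* holds 130 counts on *Hoxb4* and 1 count each on *Hoxb8*, *Hoxb9* and *Hoxd12*.

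*Hoxb4*, an anterior gene that acts in the posterior hindbrain and the spinal cord and is also known from blood progenitors, was the member that differed. The *tuft* library held 130 counts on it, and wild type held 10. The *tuft* value was 20.2 CPM and the wild-type value 0.702 CPM, and scaled to the *tuft* library the 10 wild-type counts correspond to 3.43. The fold was 37.9 (19.9 to 80.8), or 5.24 on the log2 scale. Per kilobase of its longest transcript the level was 4.87 CPM (4.07 to 5.78) in *tuft* and 0.169 CPM (0.0811 to 0.311) in wild type. *Hoxb4* gave 97.7% (93.5 to 99.5) of all Hox counts in *tuft*, and 10 of 109 in wild type.

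The gene lies on the forward strand at chr11:96318267-96321638, inside the span annotated for *Hoxb3*, which covers chr11:96307101-96347930. *Hoxb3* had 7 counts in wild type and 0 in *tuft*. *Hoxb5*, 12.1 kb away, had 17 and 0. The count of 130 thus stood beside neighbors without a count in the same library. Whether counting used strand is not given in the sources used here, and genes that overlap, such as *Hoxb3* and *Hoxb4*, can share or lose reads. *Mir10a*, a microRNA gene, lies 992 bases from *Hoxb4*.

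The mutated gene acts on methylated CpG, the sites where DNA methylation occurs. A promoter window of 250 bases is therefore shown for *Hoxb4*, for *Hoxb8*, the other member counted in both libraries, and for *Hoxb1*, the most anterior *Hoxb* gene. Methylation was not measured in these data. The sequences are RefSeq's, GRCm38.p6, forward strand, from chr11:96318017-96318266 for *Hoxb4*, chr11:96281655-96281904 for *Hoxb8* and chr11:96365508-96365757 for *Hoxb1*, with each CG in capitals. The *Hoxb4* window ends directly before the annotated gene. The *Hoxb8* window lies inside the annotated span of its gene, chr11:96279401-96285325. The *Hoxb1* window ends just inside that of its gene, which starts at 96365746.
Hoxb4: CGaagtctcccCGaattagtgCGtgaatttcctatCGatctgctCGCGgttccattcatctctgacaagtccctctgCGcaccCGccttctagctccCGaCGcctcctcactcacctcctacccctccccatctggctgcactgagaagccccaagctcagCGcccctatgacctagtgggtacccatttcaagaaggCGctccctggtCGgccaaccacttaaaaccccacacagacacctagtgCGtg
Hoxb8: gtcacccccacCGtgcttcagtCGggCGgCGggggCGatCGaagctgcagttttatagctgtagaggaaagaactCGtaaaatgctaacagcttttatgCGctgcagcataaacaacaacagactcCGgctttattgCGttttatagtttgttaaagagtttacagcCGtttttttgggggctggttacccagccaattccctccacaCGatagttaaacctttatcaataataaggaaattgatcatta
Hoxb1: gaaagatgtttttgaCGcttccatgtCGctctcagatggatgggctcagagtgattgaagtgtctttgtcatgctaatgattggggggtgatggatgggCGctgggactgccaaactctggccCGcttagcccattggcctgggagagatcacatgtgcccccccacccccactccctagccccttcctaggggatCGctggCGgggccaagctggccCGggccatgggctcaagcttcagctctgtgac
The *Hoxb4* window held 14 CG, the *Hoxb8* window 12 and the *Hoxb1* window 7. Over the 24 windows available for 22 Hox genes the number ran from 2 to 35 with a median of 12.5, and over all 32851 windows of the table the median was 6. At least 14 CG were present in 41.7% of Hox windows and in 29.4% of all. The letters TATAAA, read on both strands, were found in 16.7% of Hox windows and 12.4% of all. The *Hoxb4* window thus stood near the middle of the Hox windows, and these letters say nothing of methylation.

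*Hoxb4* was read against genes of like wild-type count. Of the 143 genes with exactly 10 wild-type counts, 113 had no count in *tuft*, 6 had over 100, and the highest had 229. Of the 4294 genes with 1 to 20 wild-type counts, 34 (0.792%) reached at least 130 counts in *tuft*. Of all 13979 genes tested, 92 (0.658%) had a wild-type count and a fold at least as high. Tested genes without a wild-type count, whose fold is infinite, are not among the 92. The level itself was common, since 6477 genes had at least 130 counts in *tuft*. The size of the difference was thus rare in these libraries but not particular to *Hoxb4*.

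**Figure D2:**
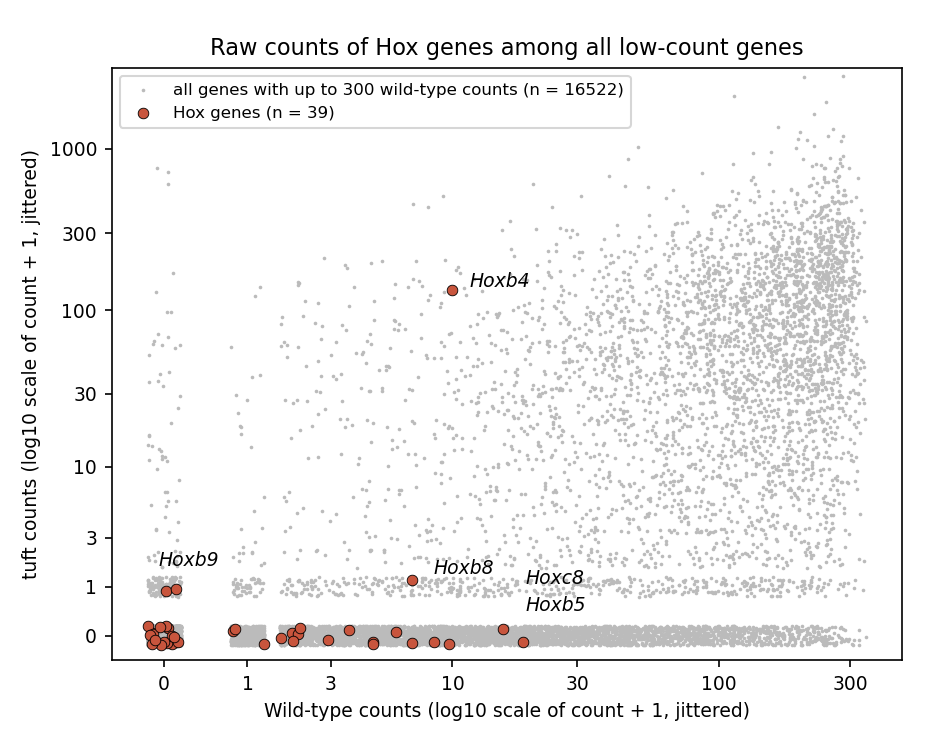
Raw counts in *tuft* (vertical) against wild type (horizontal) for the 16522 genes with up to 300 wild-type counts (gray) and the 39 Hox genes (red), both axes on a log10 scale of count + 1 with points jittered. *Hoxb4* lies at 130 and 10 counts, above the Hox genes that line the bottom with 0 or 1 *tuft* count.

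The other 38 Hox genes summed to 3 *tuft* counts, 0.466 CPM (0.0962 to 1.36), against 99 counts, 6.95 CPM (5.65 to 8.46), in wild type. Scaled by TMM, the 99 wild-type counts correspond to 34.0 counts in a library of the *tuft* size. The fold of this sum was 0.0882 (0.0179 to 0.265), while the sum over all 39 genes had a fold of 3.55 (2.74 to 4.62). The direction of the Hox sum was therefore set by *Hoxb4*, which was left out of the first sum after its value was known.

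In wild type the most counts were on *Hoxb5* and *Hoxc8*, trunk genes of the middle of the clusters, with 17 each. *Hoxb4* and *Hoxb6* had 10 each. Even the count of 17 was low within the library, since 12962 genes (53.9%) reached it.

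The hindbrain genes *Hoxb2* and *Hoxb3* had 8 and 7 counts, and *Hoxb1*, known for its role in hindbrain segment identity, had 4. Among trunk genes *Hoxb8* had 7 and *Hoxc6* 5. *Hoxc4*, of paralog group 4, had 4, and *Hoxa11*, known for its role in the limb and kidney, had 4. All of these other than *Hoxb8*, with 1 count, were at 0 in *tuft*. Of the genes with 1 to 3 counts, *Hoxa9*, *Hoxa10*, *Hoxb7*, *Hoxd10* and *Hoxd11* had 2 each, and *Hoxa3*, *Hoxc5* and *Hoxd8* had 1 each, all with 0 in *tuft*. These genes did not pass the floor of 3 counts. *Hoxb9* and *Hoxd12* had 1 count in *tuft* and 0 in wild type. The remaining 17, among them *Hoxa2*, *Hoxd1* and every gene of paralog group 13, had no count.

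Per kilobase of transcript, *Hoxc8* stood first in wild type at 0.519 CPM (0.302 to 0.831), then *Hoxb5* at 0.424 (0.247 to 0.679), *Hoxb6* at 0.358 (0.171 to 0.658) and *Hoxb3* at 0.253 (0.102 to 0.520). Of the 11 members above the floor, 9 had an interval that overlapped that of *Hoxc8*, the exception being *Hoxa11* at 0.104 (0.0284 to 0.267). The order within wild type could therefore not be resolved at this depth. In *tuft*, *Hoxb4* at 4.87 CPM per kilobase stood above *Hoxb8* at 0.0588 (0.00149 to 0.327), and their intervals did not overlap.

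The wild-type counts were spread unevenly over the clusters. *Hoxb* held 65 of the 109 (59.6%, 49.8 to 68.9), *Hoxc* 27 (24.8%, 17.0 to 34.0), *Hoxa* 12 (11.0%, 5.82 to 18.4) and *Hoxd* 5 (4.59%, 1.51 to 10.4). By paralog group, groups 5 to 8 held 60 (55.0%, 45.2 to 64.6), groups 1 to 4 held 37 (33.9%, 25.1 to 43.6) and groups 9 to 13 held 12 (11.0%). Group 8 had the most, with 25 counts, and groups 12 and 13 had none. In *tuft* the same classes held 1 count for groups 5 to 8, 130 for groups 1 to 4 and 2 for groups 9 to 13.

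Only 4 Hox genes had the 10 counts needed for a call, and 35 did not. *Hoxb4* was called higher, and none was called lower. Over all genes, 47.2% of the 13979 genes tested were called, 17.4% higher and 29.8% lower, and of the 1134 genes with 10 to 20 wild-type counts, the range of the 4 Hox genes, 9.79% were called higher. With 4 genes, nothing is read from the share called. Of the calls, 63.2% were lower with TMM and 75.3% with library totals alone, which shift all log2 folds by -0.39.

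The other 3 tested members had no count in *tuft*. The fold interval ran from 0 to 0.706 for *Hoxb5* and for *Hoxc8*, and from 0 to 1.30 for *Hoxb6*. A gene at 0 in *tuft* needed at least 24 counts in wild type to be called lower, which no Hox gene had, so a lower level in *tuft* could not have been called for any single Hox gene at 0 there. The median log2 fold of the 4 was -3.16, with a 0 replaced by 0.5 counts, and -0.58 with zeros set to the floor, against -0.55 and -0.45 over all tested genes.

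The zeros in *tuft* were also read against other genes of the same wild-type count. Of genes with 1 to 20 wild-type counts, 83.3% (3579 of 4294) were at 0 in *tuft*, and of Hox genes in that range 90.0% (18 of 20) were. With 1 to 4 wild-type counts, 12 of 12 Hox genes and 88.9% of all genes were at 0. With 5 to 9 it was 3 of 4 Hox genes against 81.8%, and with 10 to 20 it was 3 of 4 against 74.3%. Most genes with few wild-type counts thus had none in *tuft*, and at this number of genes the Hox shares could not be separated from that background. Of the 2221 genes with 1 to 20 *tuft* counts, 203 (9.14%) were at 0 in wild type.

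**Figure D3:**
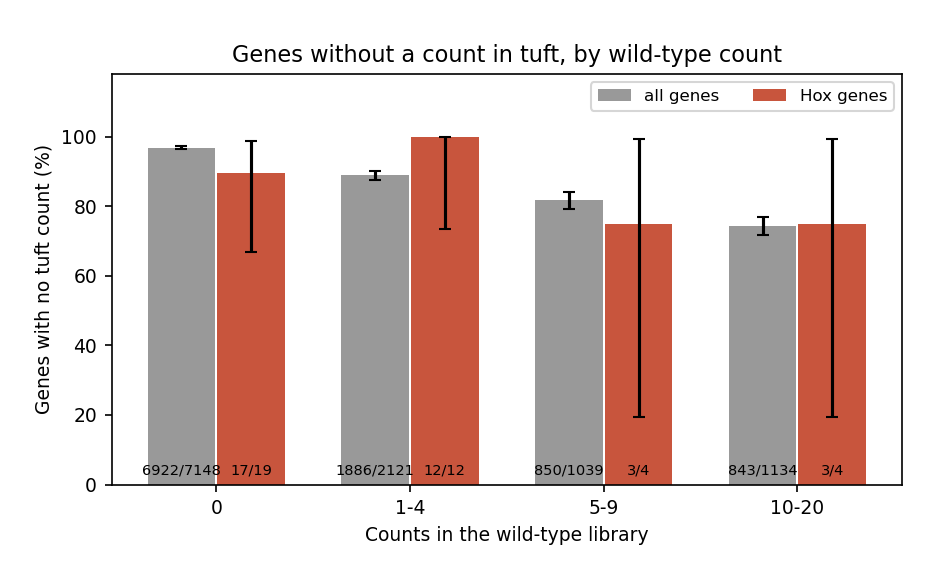
Percent of genes with no *tuft* count (vertical, from 0) by their count in the wild-type library (horizontal), for all genes (gray) and Hox genes (red), with exact 95% binomial intervals and the numbers of genes at the foot of the bars. The Hox bars follow those of all genes, from 89.5% against 96.8% at 0 wild-type counts to 75.0% against 74.3% at 10 to 20.

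Summed counts of marker genes of the trunk, the tail bud and the heart were also lower in *tuft*. The 4 lists, written for this comparison, hold markers of the tail bud, the somites, the heart and the limb bud with the lateral plate. Together their 30 genes had 659 counts in wild type (46.2 CPM) and 39 in *tuft* (6.06 CPM), a fold of 0.172 (0.121 to 0.238), and 26 of the 30 were at 0 in *tuft*. Of the 18 with 1 to 20 wild-type counts, 16 (88.9%) were at 0 there, against 83.3% of all genes in that range. The tail bud list stood at 56 counts against 2, with *Cdx1* and *Cdx2*, direct regulators of Hox genes, at 14 each against 0 and *Tbx6* at 13 against 0. The somite list stood at 92 against 1, with *Tcf15* at 19 against 0 and *Meox1* at 12 against 0.

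The heart list stood at 260 counts against 2, with *Gata4* at 157 against 0, *Myh7* at 51 against 0 and *Myl7* at 21 against 0. The limb bud and lateral plate list stood at 251 against 34, with *Foxf1* at 123 against 34 (fold 0.805, not called), *Hand2* at 59 against 0 and *Fgf10* at 40 against 0. Of the tested members of the 4 lists, 0 of 3, 1 of 3, 2 of 4 and 2 of 4 were called lower in the order given, and none was called higher. These 5 of 14 (35.7%) stand near the 29.8% called lower over all genes. The yolk sac list of 9 genes was lower as well, at 1961 CPM in wild type and 289 in *tuft*, with 7 of 9 called lower, among them *Apoa1* at 6655 counts against 93 and *Cubn* at 3788 against 375. *Afp*, at 4940 against 877 (fold 0.517), and *Amn*, at 338 against 233 (fold 2.01), were not called. The sums of these 5 lists were thus higher in wild type, though not each of their genes, as was the sum of the Hox genes other than *Hoxb4*, and the part of such tissue in the Hox counts was not tested.

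The hindbrain is the part of the head in which Hox genes are known to be on, and its list was set beside *Hoxb4*. Its 6 genes summed to 17.0 CPM (14.9 to 19.3) in wild type and 12.9 CPM (10.3 to 16.0) in *tuft*. After TMM scaling the fold of this sum was 0.999 (0.769 to 1.29). *Fgf3*, a signal made in the hindbrain, had 64 counts in wild type and 34 in *tuft*, a fold of 1.55 (0.989 to 2.38). Of 4 genes tested, 1 was called lower, beside 29.8% over all genes tested. *Egr2*, needed for hindbrain segments, had 2 and 0, and *Gbx2* had 17 and 0. None of the 6 was called higher alongside *Hoxb4*, and the part of hindbrain tissue in the *Hoxb4* count was not tested.

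**Figure D4:**
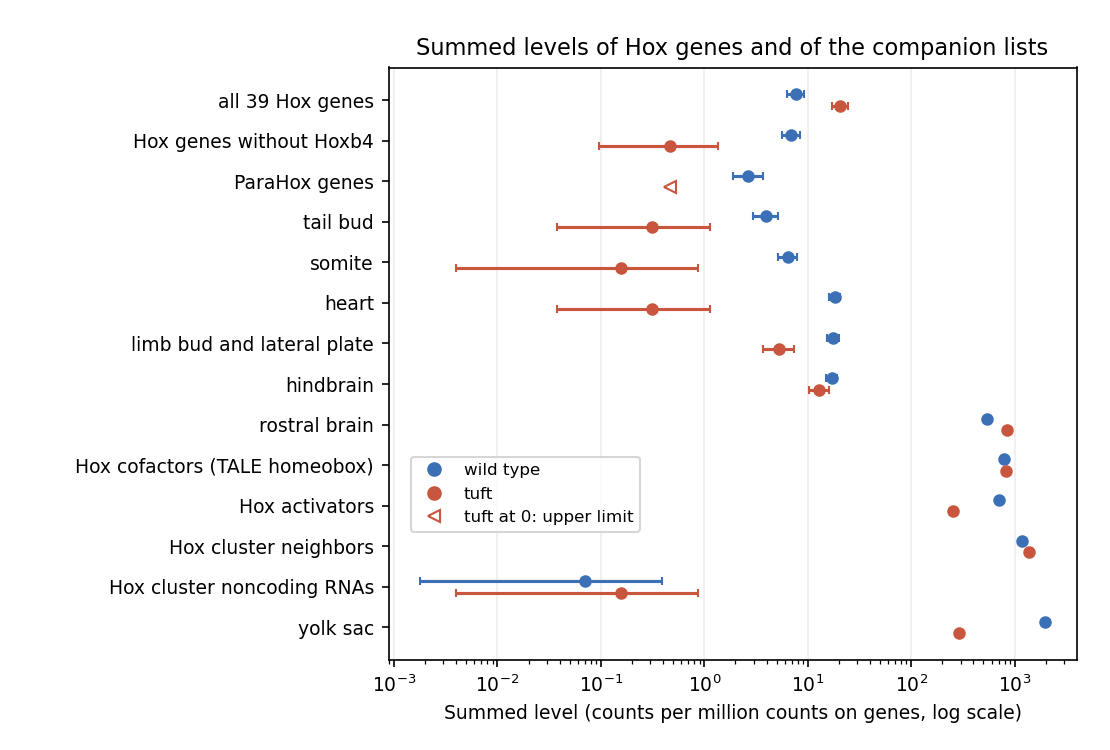
Summed level of Hox genes and of each companion list (rows) in CPM on a log axis, in wild type (blue) and *tuft* (red), with exact 95% Poisson intervals and, where *tuft* is at 0, an open triangle at the 3 counts that a count of 0 was taken to allow. Hox genes without *Hoxb4* and the ParaHox, tail bud, somite and heart lists lie lower in *tuft*, while the sum of all 39 Hox genes lies higher.

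The ParaHox genes, the sister family of the Hox genes, had no count in *tuft* and 38 in wild type. Besides *Cdx1* and *Cdx2*, *Gsx2*, a forebrain gene of this family, had 9 in wild type. Of 6 genes 2 were tested and neither was called. Of the noncoding RNAs of the clusters, 11 of 22 listed were in the table, and they held 1 count in each library, on *Hotair* in *tuft* and on *Hoxa11os* in wild type. The libraries were made from poly-A RNA, which does not capture mature microRNAs.

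Of the 18 genes measured at the flanks of the clusters, 15 were detected in wild type and 13 in *tuft*. The 18 measured neighbors summed to 1189 CPM in wild type and 1392 CPM in *tuft*, and 2 of 13 tested were called higher and none lower. The shares over all genes tested were 17.4% higher and 29.8% lower. *Calcoco1*, beside *Hoxc*, had 634 counts in wild type and 1256 in *tuft*, a fold of 5.77, and *Mtx2*, beside *Hoxd*, had 533 and 842, a fold of 4.60. *Cbx5*, which encodes a heterochromatin protein, had 6478 and 2256, a fold of 1.01, and *Atp5g3* had 5827 and 3317, a fold of 1.66. *Evx1* and *Evx2*, homeobox genes at the ends of *Hoxa* and *Hoxd*, were at 3 and 0 counts in wild type and at 0 in *tuft*.

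Hox proteins bind DNA together with TALE homeodomain proteins of the Pbx, Meis and Prep families, and these cofactors were expressed in both libraries. The 9 cofactor genes summed to 798 CPM in wild type and 824 CPM in *tuft*. Of these genes 2 were called higher and 2 lower, beside 17.4% and 29.8% over all genes tested. *Pbx2* had 5801 counts in wild type and 442 in *tuft*, a fold of 0.222, and was called lower. *Pknox2* had 1377 and 385, a fold of 0.814. *Pbx4* (33 and 47 counts, fold 4.15) was called higher and *Pknox1* (260 and 28, fold 0.314) the other called lower. With library totals alone *Pbx4* was no longer called.

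Genes that switch Hox genes on or keep them on had counts in both libraries, though *Kat6a* had few in *tuft*. The 8 activators summed to 710 CPM in wild type and 251 CPM in *tuft*, with 2 called lower and none higher. Among all genes tested, 29.8% were called lower and 17.4% higher. *Kmt2a*, a histone H3 lysine 4 methyltransferase needed to maintain Hox expression, had 2515 counts in wild type and 206 in *tuft*, a fold of 0.239. *Kat6a*, an acetyltransferase needed for Hox expression, had 1923 and 5, a fold of 0.00757 (0.00246 to 0.0177). *Men1*, a partner of *Kmt2a*, had 2253 and 453, a fold of 0.585, and was not called. The list's median log2 fold was -0.88, against -0.55 over all tested genes. Across the 12 lists, 67 of the 104 genes in the table were tested and 28 were called, 8 higher and 20 lower, a share of 41.8% against 47.2% over all genes. With library totals alone 33 were called, 5 higher and 28 lower.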

How the data were processed

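Rostrum RNA of E9 embryos, pooled from 3 embryos per genotype, was selected for poly-A and sequenced single-end on an Ion Proton. Per the labels and the methods, the authors trimmed reads with PRINSEQ, aligned them to mm10 with TopHat 2.0.14 and Bowtie2 2.2.5, and deposited raw read counts per gene from htseq-count. Its version, overlap mode, strand setting and gene models are not given in the sources used here. The labels list 2 *tuft* samples and 1 wild-type sample. The table has 1 column for *tuft*, which was assigned to the group and to neither sample.

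The 5 summary lines were left out. CPM is the count divided by all counts on genes times 1000000, per kilobase by the longest GENCODE vM1 protein-coding transcript (39 of 39 Hox genes). Folds used TMM factors of edgeR 4.0.16. DESeq2 1.42.0 gave size factors for an alternative scaling. Intervals are exact (binomial for folds and shares, Poisson for levels, scipy 1.17.1) at 95%. The study's NOISeq-sim calls were not repeated, since they rest on simulated libraries. Coordinates are from RefSeq GRCm38.p6, the assembly of mm10, with 39 of 39 Hox genes matched.

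The members and lists were chosen with earlier results of these data known. Every Hox gene is counted, and those above 3 *tuft* counts or at 30 or more wild-type counts are described in full. From each list the 3 genes with the most counts are named, with genes called against the list's majority. Some genes are not reported here by name, but they remain in the sums and counts. *Evx1*, *Evx2*, *Gsx2*, *Egr2*, *Gbx2*, *Mtx2*, *Pbx4*, *Pknox1* and the order of Hox genes per kilobase were named after their values were seen.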

Additional observations from a re-analysis of the deposited data

How the results depend on the processing

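With 1 library per genotype, no sample could be left out. No paired analysis was possible because the table has a single column for each genotype. The number of Hox genes above 3 counts, 11 in wild type and 1 in *tuft*, became 20 and 4 at 1 count or more, 4 and 1 at 10 counts, and 5 and 1 at 0.5 CPM. With a fold of 1 in place of 2, 3 Hox genes were called, as *Hoxb5* and *Hoxc8* were then lower. That setting called 12118 of all genes and a fold of 4 called 3188, against 6605. Without *Hoxb4*, the Hox gene with the most counts, the summed level in *tuft* went from 20.7 to 0.466 CPM and the fold of the sum from 3.55 to 0.0882, a reversed direction. Other scalings put the fold of *Hoxb4* between 28.8 and 39.1 and that of the sum between 2.70 and 3.67. With library totals, 5 in place of 2 Hox activators and 2 in place of 1 somite genes were called. Library totals shift all log2 folds by -0.39, so more genes were called lower. The cause of the differences between the libraries was not tested. With library totals the calls went from 2 to 3 for heart, for limb bud and for the cluster neighbors, which then had 1 gene called lower, and with upper quartile factors from 2 to 3 for the activators. The remaining 68 values, these included, kept their direction and side of the threshold, or moved by no more than their counting interval or, for counts of genes, 1.5 times. Leaving the rRNA gene *Rn45s* out of the totals was 1 of them, and no mitochondrial gene is listed.

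Depth limits what can be said of the silent members, since a count of 0 in *tuft* was taken to allow up to 0.466 CPM. The exact interval of a 0 there reaches 0.573 CPM. These limits cover counting error only. Of all genes with 10 to 20 wild-type counts, 74.3% were at 0 in *tuft*. With TMM, 10 wild-type counts correspond to 3.43 counts in a library of the *tuft* size. Why so many of these genes had no *tuft* count was not tested.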
